A study of Homo sapiens with 60 samples.

Results

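Of the 37334 genes in the deposited expression table, 10 genes of the neuronal microtubule are described here: MAPT, MAP2, MAP1A, MAP1B, DCX, STMN2, STMN4, TUBB3, TUBB2B and TUBA1A. They were picked by name, and all 10 were found and passed the filter on low values. That filter asked for at least 1 count per 1000000 assigned reads (CPM) in at least 3 libraries and kept 15263 genes. The cells were SH-SY5Y, a wild-type human neuroblastoma line that takes on a neuron-like state in culture. Lead (Pb) at 0, 0.16, 1.26 or 10 µM was present from day 5 of differentiation, and RNA was collected at days 6, 9, 12, 15 and 18. Each of the 20 combinations of day and dose had 3 dishes, which gave 60 libraries made with PlexWell, a plate-based method that barcodes each well before pooling. All dishes came from 1 line at passage 39, so the p-values measure the spread between dishes of that line.

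Microtubules are hollow polymers of alpha- and beta-tubulin, and in neurons they carry transport along axons and dendrites. Microtubule-associated proteins such as tau, MAP2, MAP1A, MAP1B and doublecortin bind the polymer and stabilise or bundle it, whereas stathmins bind free tubulin and favour disassembly. Neurons switch between isotypes of tubulin and between these proteins as they extend and mature their processes. The cell cycle uses another set of microtubule proteins, which builds the mitotic spindle.

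Library depth ran from 16594259 to 50539599 reads assigned to genes. The day-18 libraries form a separate pool in the labels, so day 18 against any other day cannot be told apart from pool against pool, while Pb is compared with 0 µM within each day. Long transcripts were under-represented in 2 libraries, replicate 3 of day 6 with 10 µM and replicate 1 of day 18 at 0 µM. The length slope of a library was taken on its difference from the mean of the 12 libraries of its day, so it is relative to that day. It was -0.45 and -0.49 log2 per 10-fold of length in these 2, against -0.18 in the next library. Of 12 markers of noradrenergic neuroblastoma cells, 12 passed the filter, and the Schwann-cell genes CDH19 and FOXD3 had no read in 58 and 56 of 60 libraries. In bulk cultures, fewer cells with a transcript and less of it per cell cannot be told apart. Some tubulin reads cannot be placed with certainty: of the 50-base stretches of TUBB2B 47.9% also occur in other genes (43.5% in TUBB2A), and of those of TUBA1A 22.1%. In the GENCODE 29 annotation a readthrough gene covers 89.5% of the main TUBB3 transcript on the same strand. How such reads were counted is not given in the sources used here.

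Differentiation without Pb is taken first. Libraries that did not overlap between days were common. Against day 6 they were found in 63.7% of all genes at day 12 (7 of the 10), 65.5% at day 15 (8) and 64.7% at day 18 (7). By steps they were found in 61.2% for day 12 against 9 (6 of the 10), 48.4% for day 15 against 12 (9) and 37.4% for day 18 against 15 (6). MAPT, the gene for tau, the main stabiliser of axonal microtubules, lies on chromosome 17 (45894554 to 46028334, GRCh38). Without Pb it had 79.1, 79.1 and 78.3 CPM at day 6, 83.2, 70.8 and 79.0 CPM at day 9, 217, 198 and 186 CPM at day 12, 263, 240.0 and 228 CPM at day 15, and 406, 421 and 357 CPM at day 18. Days 6 and 9 overlapped, and from day 12 onward each day lay wholly above the one before. On the log2 scale MAPT at day 12 rose by 1.33 ± 0.071 relative to day 6 (SE, limma, adjusted p = 2.6e-21) and by 2.31 ± 0.071 at day 18 (adjusted p = 1e-30), the largest difference among the 10 genes. The step of day 12 against day 9 (1.36 ± 0.071) was larger than those of day 15 against day 12 (0.28 ± 0.071) and day 18 against day 15 (0.69 ± 0.071).

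MAP1B, which is abundant in growing axons (chromosome 5, 72107475 to 72209565), changed later than MAPT. It averaged 1174 ± 38.9 CPM at day 6 (SD, n = 3), 1171 ± 38.7 at day 9, 1239 ± 51.9 at day 12, 2126 ± 109 at day 15 and 2529 ± 16.4 at day 18 without Pb. Its rise was concentrated in the step of day 15 against day 12, where it gained 0.78 ± 0.050 (adjusted p = 1.9e-17), while day 12 against day 9 gave 0.08 ± 0.050 (adjusted p = 0.17). MAP1A, a relative that is more abundant in mature neurons (chromosome 15, 43510954 to 43531611), had 134, 142 and 122 CPM at day 18, against 103, 106 and 105 CPM at day 6. It rose by 0.33 ± 0.077 at day 18 (adjusted p = 0.00022).

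MAP2, the classic protein of dendritic microtubules (chromosome 2, 209424047 to 209734112), did not share that course. It had 134, 157 and 208 CPM at day 18, against 192, 192 and 191 CPM at day 6, and neighbouring days in the order of its means overlapped throughout. Its change of -0.23 ± 0.099 at day 18 passed the threshold (adjusted p = 0.042). The call did not hold in 5 of the 6 fits that left out 1 library, and without the day-18 library at 134 CPM, which is low in long transcripts, the difference was -0.08 (adjusted p = 0.49). It also failed with edgeR (-0.19, adjusted p = 0.0678).

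DCX, the gene for doublecortin of migrating and newly formed neurons (chromosome X, 111293779 to 111412192), dipped in mid-course. It had 137, 144 and 153 CPM at day 6, 161, 156 and 149.6 CPM at day 9, 65.5, 67.2 and 69.1 CPM at day 12, 242, 239 and 216 CPM at day 15, and 321, 344 and 341 CPM at day 18. The day-12 libraries lay below, and the day-15 and day-18 libraries above, those of days 6 and 9. The log2 change of DCX at day 12 relative to day 6 was -1.09 ± 0.056 (adjusted p = 5.1e-22), and the step of day 15 against day 12 was 1.77 ± 0.056 (adjusted p = 2.8e-29).

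The neural stathmins had the same low point at day 12. STMN4 (chromosome 8, 27235308 to 27258404) averaged 313 ± 2.92 CPM at day 6, 382 ± 15.1 at day 9, 127 ± 7.26 at day 12, 256 ± 13.9 at day 15 and 345 ± 36.0 at day 18. STMN2, also called SCG10 and enriched in growth cones (chromosome 8, 79611117 to 79666158), averaged 1856 ± 66.3, 1756 ± 78.9, 1341 ± 94.1, 2061 ± 45.2 and 2614 ± 249.9 CPM over the same days. At day 12 STMN4 fell by 1.29 (SE 0.063, adjusted p = 6.8e-23) and STMN2 by 0.47 (SE 0.060, adjusted p = 3.8e-09) relative to day 6. At day 18 STMN2 was above day 6 by 0.49 ± 0.060 (adjusted p = 8.8e-10), while STMN4 was 0.13 ± 0.063 higher with an adjusted p of 0.058, which became 0.032 after median-ratio rescaling and 0.039 with edgeR. Without replicate 3 of day 18 it was 0.22 (adjusted p = 0.00368).

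The 3 tubulin genes differed widely in level. TUBA1A, the chief alpha-tubulin of developing neurons (chromosome 12, 49184795 to 49189080), had 6692, 6205 and 6164 CPM at day 12, against 4058, 4089 and 4129.6 CPM at day 6, with no overlap, as in 63.7% of all genes. It rose by 0.63 ± 0.048 at day 12 (adjusted p = 1.2e-15), was highest at day 15 with 7593 ± 42.0 CPM, and had 7254 ± 414 CPM at day 18. TUBB2B, a beta-tubulin needed for neuronal migration (chromosome 6, 3224277 to 3227653), averaged 1757 ± 109 CPM at day 18, against 1401 ± 13.5 CPM at day 6, and rose by 0.33 ± 0.052 (adjusted p = 4e-07). TUBB3, the beta-tubulin widely used as a neuronal marker (chromosome 16, 89921925 to 89936097), stayed between 6.62 and 17.8 CPM in all 60 libraries. It had 6.74, 8.43 and 8.30 CPM at day 9, against 12.7, 11.2 and 12.1 CPM at day 6, and its log2 change was -0.56 ± 0.117 (adjusted p = 0.0011). The part of the overlapping readthrough gene in these TUBB3 counts was not tested.

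**Figure D1:**
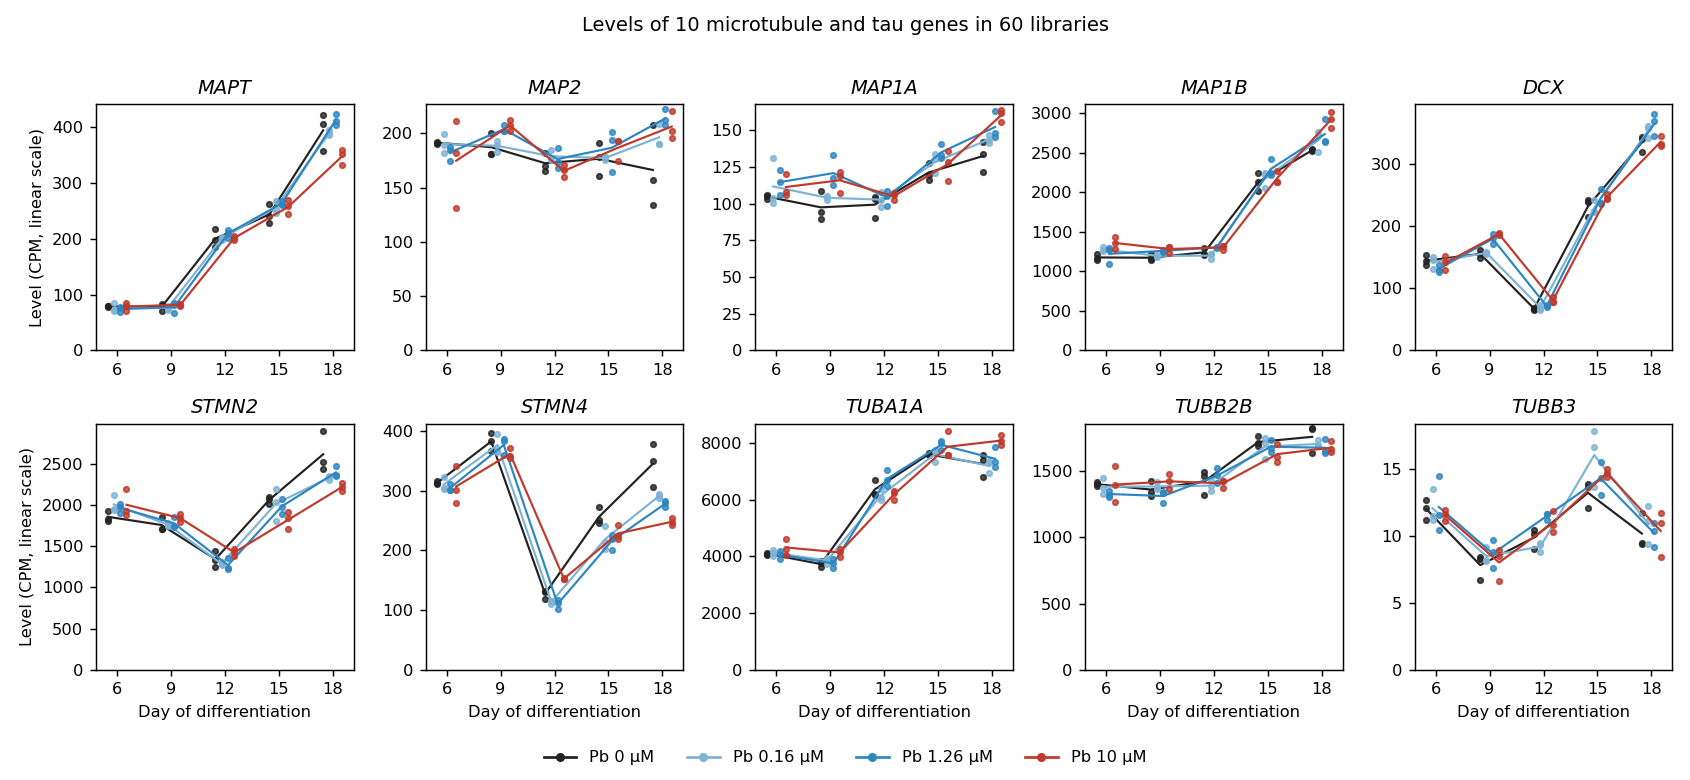
Level in CPM (linear axis from 0) of each of the 10 genes by day of differentiation; each point is 1 library, lines join the means of 3 libraries, and colours mark the Pb dose. MAPT climbs from day 12 onward at every dose, DCX, STMN2 and STMN4 have their low point at day 12, and STMN4 at day 18 is lowest with 10 µM.

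Per length of exon, on the scale of CPM per kb, the order of the 10 genes was nearly the same at both ends of the course. TUBA1A led with 2811 ± 160 CPM per kb at day 18 and 1586 ± 13.8 at day 6, followed by STMN2 with 1107 ± 106 and 785.7 ± 28.1. TUBB3 was last with 3.09 ± 0.402 at day 18 and 3.65 ± 0.226 at day 6. The full exon length was used for each gene, so the place of TUBB3 may depend on how reads under the readthrough gene were counted. The values of TUBB2B and TUBA1A may likewise depend on how shared reads were counted. MAPT moved from the 8th place at day 6 to the 6th at day 18, with 57.9 ± 4.91 CPM per kb at day 18 and 11.6 ± 0.071 at day 6.

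Counted together, 1 of the 10 genes was higher (STMN4) and 1 lower (TUBB3) at day 9 than at day 6, where 5.14% of all genes were called, 2.63% higher and 2.51% lower. At day 12, 2 were higher (MAPT and TUBA1A) and 3 lower (DCX, STMN2 and STMN4), with 56.2% of all genes called, 21.6% higher and 34.6% lower. At day 15, 7 were higher and STMN4 was lower with 58.3% of all genes called, 26.2% higher and 32.2% lower. At day 18, 7 were higher and MAP2 was lower, with 66.8% of all genes called, 32.1% higher and 34.7% lower. The 7 genes were MAPT, MAP1A, MAP1B, DCX, STMN2, TUBB2B and TUBA1A on both days. The median log2 change of the 10 genes was 0.41 at day 18, against -0.03 for all genes, and -0.12 at day 12, against -0.11 for all genes. Since the median of all genes lay at -0.11 at day 12, MAPT, TUBA1A, DCX, STMN2 and STMN4 differed from it by far more, while MAP1A, at -0.08, was at 0.04 after median-ratio rescaling and passed in neither. MAP1B at day 12 passed as higher after rescaling (0.19, adjusted p = 0.00115) and with edgeR (0.18, adjusted p = 0.0023).

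By single steps, 3 genes rose (MAPT, TUBA1A and TUBB3) and 3 fell (DCX, STMN2 and STMN4) at day 12 relative to day 9, with 54.4% of all genes called, 20.7% higher and 33.7% lower. At day 15 relative to day 12, 9 of 10 rose, all but MAP2, with 37% of all genes called and 22.3% called higher. At day 18 relative to day 15, 5 rose (MAPT, MAP1B, DCX, STMN2 and STMN4) and TUBB3 fell, with 33.3% of all genes called, 18.4% higher and 14.9% lower. The TUBB3 calls of these steps were lost in 3 and 4 of 6 fits that left out 1 library, and those of MAP1A and STMN2 at day 15 against day 6 in 2 and 4.

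The isotype make-up of tubulin shifted towards TUBA1A and away from TUBB. TUBA1A supplied 89.2% ± 0.22 of the summed alpha-tubulin CPM at day 18, against 77.6% ± 0.36 at day 6 (SD, n = 3), and TUBA1B 10.5% ± 0.22 at day 18, against 22.2% ± 0.36. Among beta-tubulins, TUBB2B supplied 29.05% ± 0.067 at day 18, against 25.9% ± 0.18 at day 6, with a low of 22.2% ± 0.82 at day 12. TUBB2A, its near-identical neighbour, supplied 10.7% ± 0.047 at day 18, against 4.32% ± 0.067 at day 6, and TUBB 46.2% ± 0.077, against 56.4% ± 0.22. TUBB3 supplied 0.168% ± 0.019 at day 18, against 0.222% ± 0.013 at day 6, and the libraries did not overlap. These shares are descriptions, and the split between TUBB2A and TUBB2B depends on how shared reads were counted. The TUBB3 share may likewise depend on how reads under the readthrough gene were counted.

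**Figure D2:**
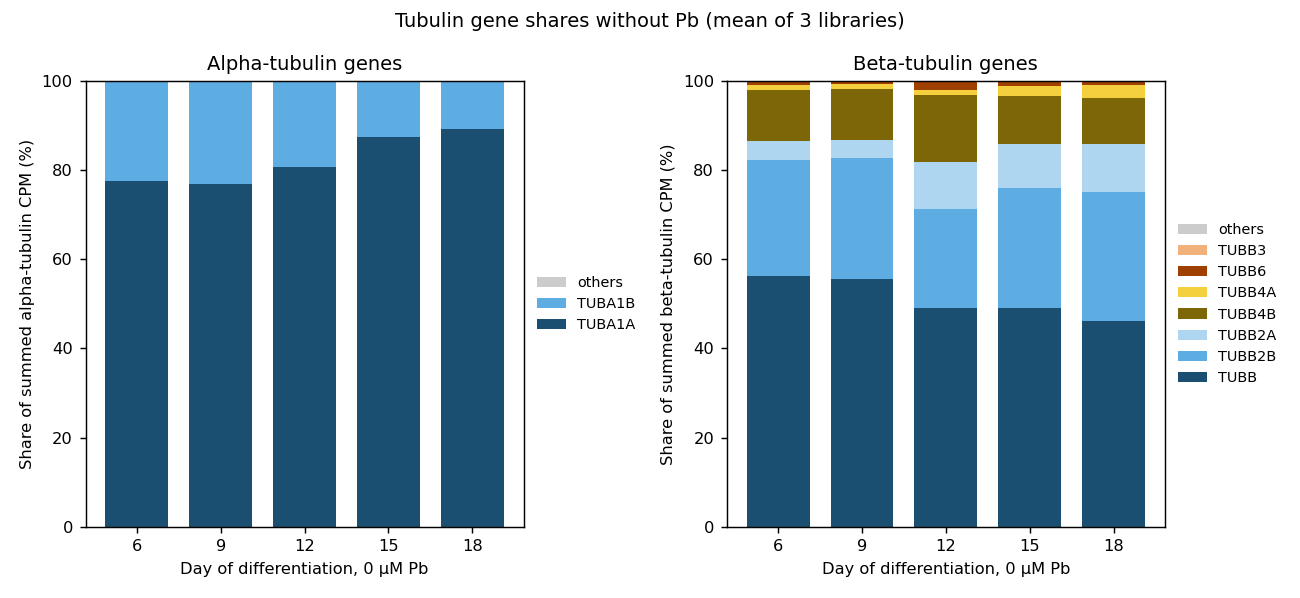
Share (%) of the summed alpha-tubulin CPM (left) and beta-tubulin CPM (right) held by each gene at 0 µM Pb, by day; each bar is the mean of 3 libraries. TUBA1A holds 77.6% at day 6 and 89.2% at day 18, and the TUBB3 share is too small to see.

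For 5 of the genes that were higher at days 15 and 18, MAP1A, MAP1B, DCX, TUBB2B and TUBA1A, the bases before the annotated start are shown. All 5 rose in the step of day 15 against day 12, as did MAPT, STMN2, STMN4 and TUBB3. No start window was used for MAPT, STMN2 or STMN4. MAP1A and MAP1B have 2 annotated windows each and DCX has 3, and the one at the outer end of the gene is shown. The sequences are the 250 bases upstream of the start in RefSeq (GRCh38.p14), read 5′ to 3′ on the gene's strand. Capitals mark the TATA-box letters TATAAA, the letters CCAAT of the CCAAT box, the letters GGGCGG of the GC box and the letters TGACG of the cyclic AMP response element, on either strand. The E-box letters CANNTG were also searched on both strands. Among 35116 windows of the same length before annotated starts, the TATA-box letters are in 10.7%, CCAAT in 32.0%, the GC-box letters in 42.6%, TGACG in 21.2% and the E-box letters in 61.8%.
MAP1A (chr15:43510704-43510953, plus strand): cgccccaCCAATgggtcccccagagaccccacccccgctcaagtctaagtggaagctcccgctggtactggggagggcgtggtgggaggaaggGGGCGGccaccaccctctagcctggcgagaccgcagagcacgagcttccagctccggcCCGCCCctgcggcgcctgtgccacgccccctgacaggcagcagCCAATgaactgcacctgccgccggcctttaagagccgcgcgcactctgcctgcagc
MAP1B (chr5:72107225-72107474, plus strand): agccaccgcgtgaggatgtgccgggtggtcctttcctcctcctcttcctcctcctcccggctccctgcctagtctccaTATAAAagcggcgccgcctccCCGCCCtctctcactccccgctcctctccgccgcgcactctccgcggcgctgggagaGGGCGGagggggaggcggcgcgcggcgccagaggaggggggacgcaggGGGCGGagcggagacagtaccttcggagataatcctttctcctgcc
DCX (chrX:111412193-111412442, minus strand): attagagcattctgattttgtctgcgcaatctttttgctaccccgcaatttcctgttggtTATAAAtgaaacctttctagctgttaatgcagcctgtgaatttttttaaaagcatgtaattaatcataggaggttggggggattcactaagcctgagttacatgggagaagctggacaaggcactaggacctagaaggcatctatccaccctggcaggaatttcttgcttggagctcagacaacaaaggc
TUBB2B (chr6:3227654-3227903, minus strand): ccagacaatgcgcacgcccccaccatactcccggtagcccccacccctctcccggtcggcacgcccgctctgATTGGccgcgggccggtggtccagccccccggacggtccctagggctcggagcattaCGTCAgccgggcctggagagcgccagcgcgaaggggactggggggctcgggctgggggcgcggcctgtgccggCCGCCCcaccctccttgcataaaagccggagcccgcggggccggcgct
TUBA1A (chr12:49189081-49189330, minus strand): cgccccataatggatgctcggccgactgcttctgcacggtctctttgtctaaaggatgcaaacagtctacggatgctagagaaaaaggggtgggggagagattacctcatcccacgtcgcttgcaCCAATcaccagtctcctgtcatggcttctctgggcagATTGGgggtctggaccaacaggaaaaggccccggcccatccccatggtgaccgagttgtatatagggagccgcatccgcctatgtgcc
MAP1A holds 2 CCAAT matches and 2 GC-box matches. MAP1B holds 1 TATA-box and 3 GC-box matches, and DCX holds 1 TATA-box match. TUBB2B holds 1 match each of the CCAAT box, the GC box and TGACG, and TUBA1A holds 2 CCAAT matches. The E-box letters were found in MAP1A alone of these 5 windows, as 1 match. The guanine and cytosine content was 70.4% for MAP1A, 70.0% for MAP1B, 42.8% for DCX, 75.2% for TUBB2B and 56.4% for TUBA1A. A match of letters is a description of the window only.

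Other microtubule genes were counted by lists, beside 32.1% of all genes called higher and 34.7% called lower at day 18 relative to day 6. For list genes, no fit with a correction for transcript length or with a library left out is given here. The day-18 libraries without Pb include the 1 that is low in long transcripts, and its part in the list results was not tested. Of 13 other tubulin genes kept, 8 rose and 3 fell at day 18 relative to day 6, with a median log2 change of 0.55 against -0.03 for all genes. TUBB2A rose by 1.46 ± 0.051 and TUBB4A by 1.41 ± 0.066 there. Of 22 kinesin and dynein genes of neuronal transport 15 rose and 5 fell, with a median of 0.34. KIF5A, a motor of anterograde axonal transport, rose by 1.63 ± 0.063 (adjusted p = 1.27e-26), and DYNC1I1, an intermediate chain of dynein, by 1.45 ± 0.15. Of 19 spindle genes kept, 19 fell and none rose, with a median of -1.26, and TPX2, a spindle assembly factor, fell by 1.36 (SE 0.065). Of 19 tau kinases, phosphatases and their regulators, 2 rose and 11 fell, with a median of -0.42. DYRK1A, a kinase that can phosphorylate tau, fell by 1.19 (SE 0.13), and PPP2R2B, a neuronal regulatory subunit of protein phosphatase 2A, rose by 1.05 ± 0.11.

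In the remaining microtubule lists the shares called at day 18 lay nearer to those of all genes. Of 22 other microtubule-associated proteins 8 rose and 9 fell, among them MAPRE3, an end-binding protein of neurons, which rose by 1.14 ± 0.058. Of 21 tubulin folding and modification genes 6 rose and 7 fell. ATAT1, the alpha-tubulin acetyltransferase, rose by 0.91 ± 0.059 at day 18 after it had fallen by 0.60 (SE 0.059) at day 12. Of 8 other stathmins and severing enzymes 2 rose and 3 fell, and the severing enzyme SPAST fell by 1.17 (SE 0.16). Within day 18, SPAST was higher with Pb than without, by 0.68 ± 0.16 at 10 µM and 0.72 ± 0.16 at 1.26 µM. Epithelial markers departed from the share of all genes. Of 6 kept, 5 were called higher and 1 lower at day 18 than at day 6, against 32.1% and 34.7% of all genes. Their summed level ran from 82.2 to 123.8 CPM in the day-18 libraries without Pb, against 23.5 to 27.5 CPM at day 6. KRT5, KRT14 and KRT6A carried that sum, with 34.4, 19.0 and 23.5 CPM at day 18, against 0.481, 0.389 and 0.358 CPM at day 6, while KRT10 had 17.0 CPM at day 18 and 23.8 CPM at day 6. Their part in the day-18 values was not tested.

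With Pb, the largest log2 change called within a day was the -0.47 of STMN4 at day 18 with 10 µM, beside 2.31 for MAPT between days 18 and 6. Averaged over the 5 days, 10 µM Pb raised 4 of the 10 genes and lowered 1, with 15.1% of all genes called, 6.93% higher and 8.13% lower. The 3 doses share the same 0 µM dishes. The log2 change of MAP1A was a rise of 0.15 ± 0.035 (adjusted p = 0.0011) and that of MAP1B of 0.13 ± 0.023 (adjusted p = 2.1e-05), and both had a higher mean with 10 µM on 5 of 5 days. DCX rose by 0.12 ± 0.025 (adjusted p = 0.00052) and TUBA1A by 0.08 ± 0.022 (adjusted p = 0.0094), each with a higher mean on 4 of 5 days. STMN4 fell by 0.10 (SE 0.028, adjusted p = 0.011), with a higher mean on only 1 of 5 days. The tau gene MAPT gave -0.00 ± 0.032 (adjusted p = 0.95), MAP2 0.07 ± 0.044 (0.35), STMN2 -0.03 ± 0.027 (0.51), TUBB2B -0.02 ± 0.023 (0.62) and TUBB3 0.06 ± 0.052 (0.55). Without replicate 3 of day 6 at 10 µM, which is low in long transcripts, MAP2 was called, with 0.11 ± 0.037 (adjusted p = 0.0392). The median of the 10 genes was 0.06, against 0.00 for all genes. Without day 18, 3 genes passed (MAP1A, MAP1B and DCX), while TUBA1A gave 0.06 (adjusted p = 0.138) and STMN4 -0.00 (adjusted p = 0.951). TUBA1A did not pass with no filter either (adjusted p = 0.0736).

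The lower doses moved fewer of the genes. At 1.26 µM, MAP1A rose by 0.17 ± 0.035 (adjusted p = 0.0013), MAP1B rose by 0.09 ± 0.023 (adjusted p = 0.014) and STMN4 fell by 0.16 (SE 0.028, adjusted p = 0.00013), that is 3 of 10 with 3.84% of all genes called, 1.67% higher and 2.17% lower. At 0.16 µM, STMN4 alone passed, with -0.13 ± 0.028 (adjusted p = 0.030) and 0.124% of all genes called, and STMN4 had a lower mean on 5 of 5 days at both of these doses. Without day 18 MAP1B at 1.26 µM gave 0.08 (adjusted p = 0.0809), and with the length and GC correction 0.05 (0.252). The STMN4 call at 0.16 µM did not pass without day 18 (-0.11, adjusted p = 0.468), nor in 14 of 30 fits that left out 1 library. Over dose steps the mean slope called the genes that 10 µM called, MAP1A, MAP1B, DCX and TUBA1A upward and STMN4 downward, with 15.7% of all genes called, 7.26% higher and 8.39% lower. MAP2 joined them without replicate 3 of day 6 at 10 µM (adjusted p = 0.0234) or replicate 3 of day 18 at 0 µM (0.0423). On a linear dose scale the STMN4 slope was not called (adjusted p = 0.833).

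Within single days the counts were largest at day 18, where 10 µM raised 4 genes and lowered 2, with 28.9% of all genes called, 12.1% higher and 16.9% lower. STMN4 had 248, 242 and 253 CPM with 10 µM, against 378, 350.2 and 306 CPM without Pb, a log2 change of -0.47 ± 0.063 (adjusted p = 8.6e-08). With 1.26 µM it had 279.6, 272 and 283 CPM and with 0.16 µM 295, 291 and 287 CPM, so no library with Pb reached the lowest one without Pb, and the 4 doses did not overlap. Against 0 µM, 34% of all genes did not overlap at 10 µM, 20.1% at 1.26 µM and 16.1% at 0.16 µM. Of the 10 genes these were 5, 4 and 2. The share of all genes in which all 4 doses lay apart was not counted. The change of STMN4 was -0.30 ± 0.063 at 1.26 µM (adjusted p = 0.0023), where 2 of 10 genes and 12.4% of all genes were called. At 0.16 µM it was -0.24 ± 0.063 (adjusted p = 0.022), where 1 of 10 and 6.34% were called. The 10 µM call held without each of the 6 libraries in turn. Without replicate 1 of the day-18 dishes at 0 µM the difference was -0.23 at 1.26 µM (adjusted p = 0.0905) and -0.17 at 0.16 µM (adjusted p = 0.422). At 0.16 µM the call was also lost without replicate 1 (adjusted p = 0.0622), replicate 2 (0.0833) or replicate 3 of its own dishes.

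STMN2 had 2166, 2221 and 2263 CPM with 10 µM at day 18, against 2898, 2514 and 2429 CPM without Pb, with no overlap. It fell by 0.23 (SE 0.060, adjusted p = 0.0024), and without the library at 2898 CPM the difference was -0.16 (adjusted p = 0.0713). STMN1, the broadly expressed stathmin that is abundant in proliferating cells, fell at day 18 as well, by 0.44 (SE 0.055, adjusted p = 1.78e-08). MAPT had 333, 351 and 359.6 CPM with 10 µM, against 406, 421 and 357 CPM without Pb, and the groups overlapped. Its difference of -0.18 ± 0.071 did not pass (adjusted p = 0.053).

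MAP1B had 2816, 2924 and 3013 CPM with 10 µM at day 18, against 2547, 2514 and 2528 CPM without Pb, and rose by 0.21 ± 0.050 (adjusted p = 0.0016). MAP1A had 162, 155 and 164 CPM, against 134, 142 and 122 CPM, and rose by 0.28 ± 0.077 (adjusted p = 0.0055). In neither gene did the groups overlap. At day 18 with 10 µM, 5 of the 10 genes did not overlap, beside 34% of all genes. TUBA1A averaged 8078 ± 174 CPM with 10 µM, against 7254 ± 414 CPM without Pb, and rose by 0.16 ± 0.048 (adjusted p = 0.012). MAP2 had 220.4, 203 and 196 CPM with 10 µM, against 134, 157 and 208 CPM without Pb, which overlapped. It rose by 0.33 ± 0.099 (adjusted p = 0.0095) at 10 µM and by 0.38 ± 0.099 (adjusted p = 0.0087) at 1.26 µM.

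The length slope of the libraries moved with these day-18 groups, with a mean of 0.04 log2 per 10-fold of length with 10 µM and -0.22 without Pb. Since the slope is relative to the mean of the day, low slopes without Pb also raise those with Pb. Without replicate 1 of day 18 at 0 µM, MAP2 differed by 0.19 with 10 µM (adjusted p = 0.202) and by 0.24 with 1.26 µM (adjusted p = 0.263). The MAP2 call at 10 µM was also lost without replicate 1 at 10 µM (adjusted p = 0.0575), and that of TUBA1A without replicate 3 at 0 µM (0.105) or at 10 µM (0.0551). With a correction for transcript length and GC content MAP1A differed by 0.20 (adjusted p = 0.0705) and MAP1B by 0.11 (adjusted p = 0.153) with 10 µM. When the fit held the libraries of the 2 compared groups alone, STMN4 (adjusted p = 0.00886) was the 1 gene of the 6 that passed at 10 µM.

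**Figure D3:**
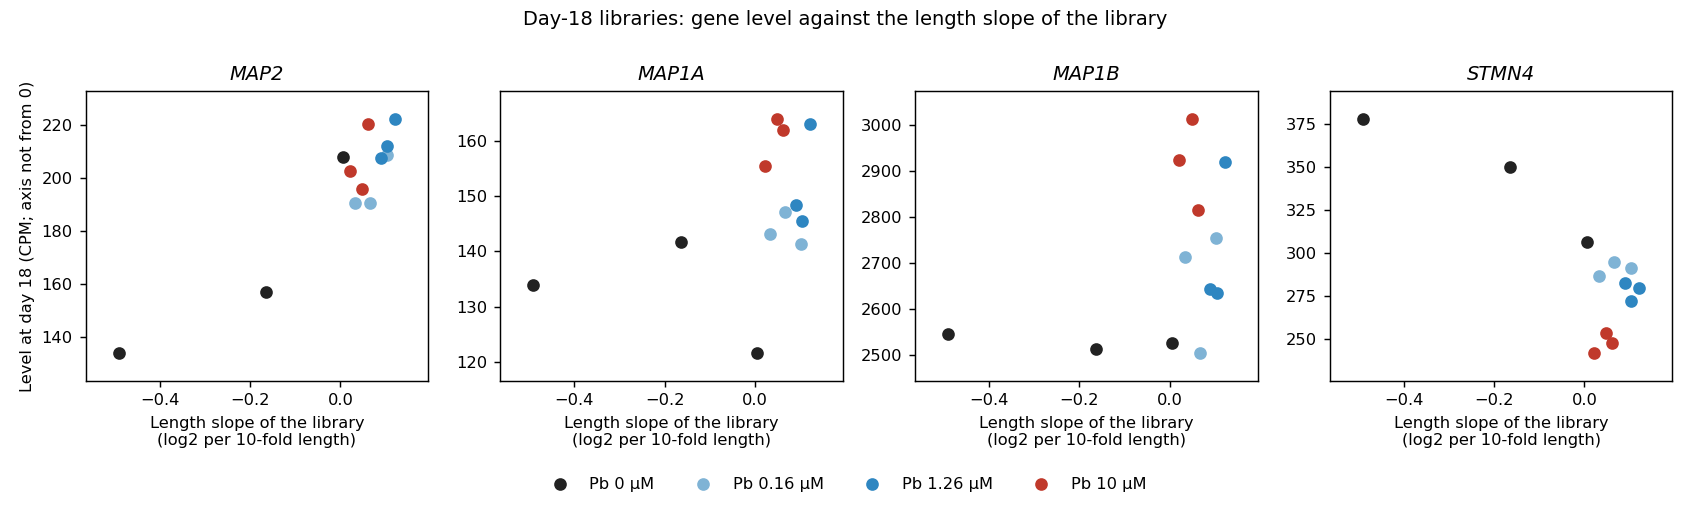
Level in CPM at day 18 (vertical axes do not start at 0) of MAP2, MAP1A, MAP1B and STMN4 against the length slope of the library, in log2 per 10-fold of transcript length; each point is 1 library, coloured by Pb dose. The libraries with Pb lie at slopes from 0.02 to 0.12, while those without Pb lie at -0.49, -0.16 and 0.01. Slopes are relative to the mean of all day-18 libraries.

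Earlier days had fewer calls, at most 2 of the 10 genes in a comparison with 0 µM. At day 6, 1 day after Pb was first added, MAP1B had 1352, 1286 and 1432 CPM with 10 µM, against 1166, 1140.1 and 1217 CPM without Pb, and rose by 0.21 ± 0.050 (adjusted p = 0.041, 1 of 10 genes, with 0.655% of all genes called). Without replicate 3 at 10 µM, which is low in long transcripts, it gave 0.17 (adjusted p = 0.361), and the call was also lost without replicate 1 (0.190) or 2 (0.162) at 0 µM. At day 9, DCX had 186, 187 and 189 CPM with 10 µM, against 161, 156 and 149.6 CPM without Pb, and rose by 0.27 ± 0.056 (adjusted p = 0.0026, 1 of 10 genes, with 1.41% of all genes called, 0.446% higher and 0.963% lower). With 1.26 µM at day 9, 0.4% of all genes were called.

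At day 12, when DCX and STMN4 were at their low point, both were higher with 10 µM Pb. DCX had 78.3, 78.6 and 85.3 CPM with 10 µM, against 65.5, 67.2 and 69.1 CPM without Pb, and rose by 0.26 ± 0.056 (adjusted p = 0.0024). STMN4 had 151, 153 and 153 CPM, against 130.2, 119 and 133 CPM, and rose by 0.26 ± 0.063 (adjusted p = 0.0077). Neither gene overlapped between the groups. Of the 10 genes these 2 did not overlap, beside 26.8% of all genes, and 2 were called, with 5.37% of all genes called. The STMN4 call did not pass without replicate 2 of day 12 at 0 µM (0.21, adjusted p = 0.0847). With 1.26 µM STMN4 lay on the other side, at 117, 102 and 111 CPM, a difference of -0.21 ± 0.063 (adjusted p = 0.32). With 0.16 µM STMN4 also lay below 0 µM, at 115, 115 and 111 CPM, and was not called. At both of these doses its libraries did not overlap those at 0 µM. That was so for 3 of the 10 genes and 12.5% of all genes at 1.26 µM, and for 1 of 10 and 13% at 0.16 µM.

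At day 15 no gene of the 10 passed at 10 µM with limma, against 5.68% of all genes called. With edgeR 0 passed, while 1 passed after median-ratio rescaling, with the length and GC correction, or without the 2 libraries low in long transcripts. In the main limma fit STMN2 gave -0.18 ± 0.060 at 10 µM (adjusted p = 0.060). STMN4 passed at 1.26 µM with -0.25 ± 0.063 (adjusted p = 0.030, 1 of 10 genes, with 1.26% of all genes called). That call did not pass with edgeR (adjusted p = 0.0502), nor without replicate 1 (0.214) or 2 (0.0578) at 0 µM or replicate 2 (0.0784) or 3 (0.341) at 1.26 µM.

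**Figure D4:**
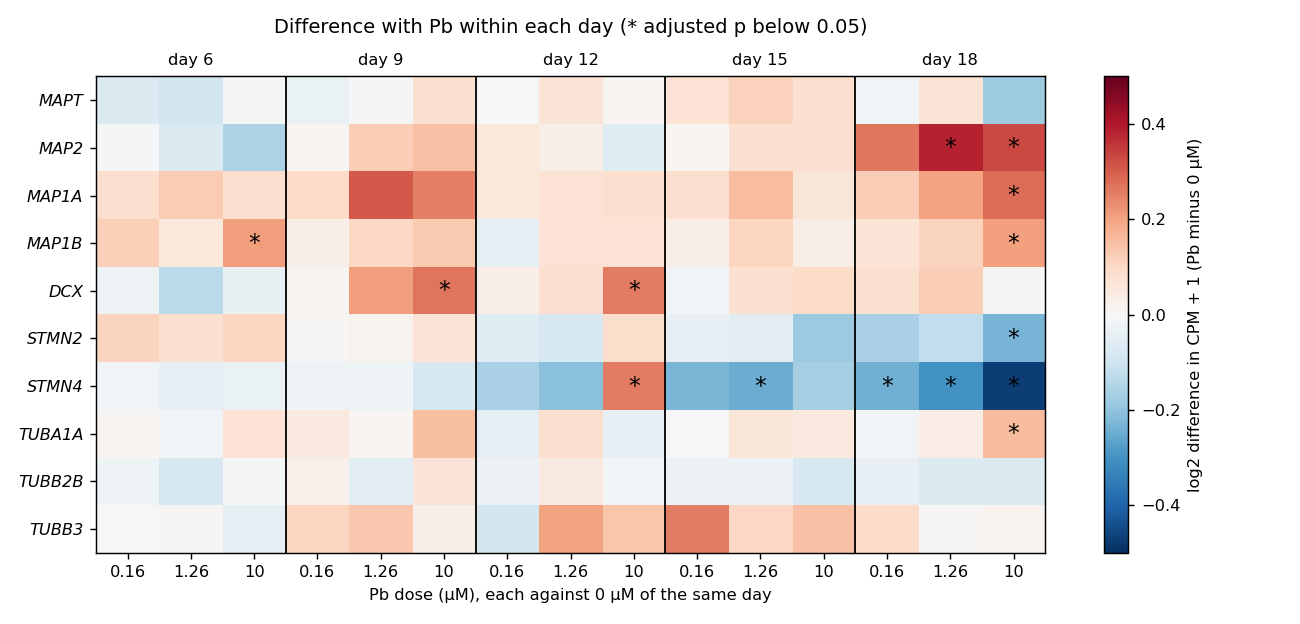
Heat map of the log2 difference in CPM + 1 of each gene (rows) between each Pb dose and 0 µM of the same day (columns); red is higher with Pb, blue lower, and an asterisk marks an adjusted p below 0.05. STMN4 is higher with 10 µM at day 12 (0.26) and lower at day 18 (-0.47).

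Whether the Pb difference itself changed between days was tested with moderated F tests. For 10 µM it varied for STMN4 (adjusted p = 8.12e-07), STMN2 (0.00166) and DCX (0.00415), that is 3 of 10 genes, with 21.7% of all genes called. In STMN4 the difference was -0.03 at day 6, -0.08 at day 9, 0.26 at day 12, -0.17 at day 15 and -0.47 at day 18. In STMN2 it was 0.11, 0.07, 0.09, -0.18 and -0.23 over the same days, and in DCX -0.04, 0.27, 0.26, 0.09 and 0.01. With all doses in the test the same 3 genes passed, with 11.8% of all genes called. MAPT gave an adjusted p of 0.21 and MAP1B of 0.17 in the test of 10 µM. The STMN2 result with all doses did not pass with edgeR (adjusted p = 0.0606), with no filter (0.0598) or after median-ratio rescaling (0.0656).

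With 10 µM averaged over days, the list counts stand beside 6.93% of all genes called higher and 8.13% called lower. Of the spindle genes, 17 of 19 fell and none rose, with a median of -0.31 against 0.00 for all genes. TACC3, a spindle protein, fell by 0.38 (SE 0.034, adjusted p = 1.47e-12). Of 13 other tubulins 1 rose (TUBB2A, 0.13 ± 0.023) and 1 fell (TUBB4B, by 0.10, SE 0.023). Of 22 kinesin and dynein genes 2 rose and 1 fell, among them KIF5A, which rose by 0.13 ± 0.028. Both of these counts lie near the share of all genes.

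At day 18 with 10 µM, 14 of 19 spindle genes fell, 6 of 22 kinesin and dynein genes rose and 2 fell, and 2 of 22 other microtubule-associated proteins rose, where 12.1% of all genes were called higher and 16.9% lower. TTL, the tubulin tyrosine ligase, rose by 0.48 ± 0.095 (adjusted p = 0.000116). TUBB2A rose by 0.30 ± 0.051 (adjusted p = 9.8e-06), and its share of beta-tubulin CPM was 12.7% ± 0.075 with 10 µM and 10.7% ± 0.047 without Pb, while that of TUBB2B was 26.7% ± 0.096 with 10 µM and 29.05% ± 0.067 without Pb. Of 10 mesenchymal markers kept, 3 fell and none rose there, and their summed level ran from 329.6 to 334.1 CPM with 10 µM, against 398.3 to 405.8 CPM without Pb. Their part in the values of the microtubule genes was not tested.

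The genes with the most similar course were found by Pearson's correlation over the 20 group means of log2(CPM + 1), among 12405 genes with at least 5 CPM in 1 group mean. The points share days and doses, so the values are descriptions. MAPT was closest to MAGEA10 (r = 0.996) and CEND1 (0.996), and TUBA1A to PON2 (0.992) and NPY (0.991). DCX was closest to FCGRT (0.988) and to ATAT1 (0.985), which belongs to the modification list above. STMN4 was closest to DAAM1 (0.988) and CALCOCO1 (0.984), STMN2 to RTL8B (0.977) and IP6K2 (0.976), and TUBB2B to GPC2 (0.980) and PLTP (0.979). MAP2 was closest to KIF3C (0.912) and PELI1 (0.911), MAP1A to CBLB (0.950) and SERTM2 (0.945), and TUBB3 to ARHGAP4 (0.917) and PLEKHG5 (0.884).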

How the data were processed

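RNA-seq was measured in 60 libraries of SH-SY5Y cells. The authors deposited 1 table of CPM (counts per 1000000 assigned reads), made with STAR and featureCounts on GRCh38 after FastQC and MultiQC, per the submitters' processing notes. The counting annotation, strand setting and treatment of reads with several matches are not given in the sources used here. Whole reads were recovered from the CPM steps, and 100.0% of values were whole within 0.01 read. The filtered genes (1 CPM or more in 3 or more libraries) were fitted as log2(CPM + 1) with limma 3.58.1 in R 4.3.3, with 1 mean for each of 20 groups, a trended prior and Benjamini-Hochberg adjustment over 15263 genes, at a threshold of 0.05. Fold changes on that scale understate those of low genes. The ± after a log2 change is its SE, and after a level or share its SD (n = 3). The count test, edgeR 4.0.16 quasi-likelihood on the recovered reads, was an alternative, as were those in the closing section. The code was tested on simulated data. The 10 genes and the gene lists were chosen with earlier results of these data known, so their counts are descriptions. From each list, the named genes are among up to 3 with the smallest p past the threshold in a comparison, and the 2 genes most like each of the 10 were ranked by correlation, which for MAP1B is not reported here. Replicate numbers did not pair the dishes.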

Additional observations from a re-analysis of the deposited data

Results flagged for a closer look

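The difference between Pb and 0 µM changed with the day in 3 of the 10 genes, by moderated F tests of that change itself with limma and Benjamini-Hochberg adjustment over all genes. Of all genes 21.7% passed for 10 µM and 11.8% with the 3 doses together. For 10 µM alone the adjusted p was 8.12e-07 for STMN4, 0.00166 for STMN2 and 0.00415 for DCX. With the 3 doses together it was 1.76e-06 for STMN4, 0.0202 for STMN2 and 0.0029 for DCX. That of STMN2 did not pass with no filter (0.0598), after median-ratio rescaling (0.0656) or with edgeR (0.0606). At 10 µM the log2 difference of STMN4 was highest at day 12 (0.26) and lowest at day 18 (-0.47). That of DCX was highest at day 9 (0.27) and lowest at day 6 (-0.04), and that of STMN2 was highest at day 6 (0.11) and lowest at day 18 (-0.23). Day 18 belongs to a pool of its own, and the part of the pool was not tested.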

How the results depend on the processing

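The number of the 10 genes called moved by more than 1.5 times under these settings, and the cause was not tested. With correction for length and GC content it was 8 at day 12 against day 6, 2 for 10 µM at day 9, 1 for 1.26 µM at day 9, 1 for 10 µM at day 15 and 5 for 10 µM by day. Without day 18 it was 3 for the 10 µM mean, 3 for the slope and 0 for the 0.16 µM mean. With no filter it was 0 for the 0.16 µM mean and 0 for 10 µM at day 6. With only the groups compared it was 0 for the 0.16 µM mean, 0 for 10 µM at day 6, 0 for 1.26 µM at day 15, 1 for 10 µM at day 18, and 0 for 1.26 and for 0.16 µM at day 18. With the 2 long-transcript-poor libraries left out it was 0 for 10 µM at day 6, 2 for 1.26 µM at day 9, 1 for 10 µM at day 15, 1 for 1.26 µM at day 18 and 0 for 0.16 µM at day 18. With rescaling it was 1 for 10 µM at day 15 and 5 for 10 µM by day, and with edgeR 0 for 1.26 µM at day 15 and 5 for 10 µM by day. Leaving out each library in turn gave 2 to 2 genes at day 9 against day 6, 5 to 6 at day 12, 6 to 8 at day 15 and 7 to 9 at day 18. The steps between days gave 5 to 6 (day 12 against 9), 9 to 9 (day 15 against 12) and 5 to 6 (day 18 against 15). The means gave 5 to 6 at 10 µM, 3 to 4 at 1.26 µM and 0 to 1 at 0.16 µM, and the slope 5 to 6. Within days, 10 µM gave 0 to 2, 1 to 2, 1 to 2, 0 to 1 and 4 to 6 over days 6 to 18, 1.26 µM gave 0 to 1 at days 9 and 15 and 0 to 3 at day 18, and 0.16 µM 0 to 3 at day 18. Both tests by day gave 3 to 4. Directions reversed for values near 0: MAP1A at day 12 against day 6 gave 0.036 with rescaling and 0.020 with edgeR, and TUBB2B there -0.086 with the length correction and -0.0165 to 0.0738 with a library left out. The MAPT mean at 10 µM gave 0.0052 with the length correction, 0.039 without day 18 and -0.0185 to 0.0091 with a library left out. Its slope gave -0.00087 on a linear dose scale and -0.0018 to 0.0065 with a library left out. STMN2 without day 18 gave 0.0196 for the 10 µM mean and 0.0045 for the slope. Same-numbered dishes of 1 day deviated together with a mean r of 0.028 over 90 pairs (lowest -0.356), so the numbers do not pair them, and the replicate block changed no count (5 genes for the 10 µM mean). All dishes are of 1 line at 1 passage, and day 18 is 1 pool. TUBB3, at 6.62 to 17.8 CPM, is the least precisely measured of the 10 genes.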
